A study of Mus musculus with 20 samples.

Results

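Lsr and 8 other cell junction genes were followed through hippocampal RNA of 20 mice. The 9 genes were chosen by name as tricellular, tight and adherens junction genes, out of 49671 genes in the deposited tables. The choice was made with earlier results of these data known. Lsr, Marveld2 and Ildr2 belong to tricellular junctions, Cldn5, Ocln, Tjp1 and F11r to tight junctions, and Cdh5 and Pecam1 to adherens junctions and other endothelial contacts. All 9 were among the 18427 genes that passed the filter on low counts, and the least abundant library value was 19 counts, for Marveld2. Lsr entered the list because of its own group levels, chiefly its difference between inhibitor-treated and control mice without a tumour and the way that difference changed with a tumour. Its levels and group differences are therefore given as a description, without a test.

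Each library came from 1 frozen hippocampus of an adult male wild-type mouse, 10 to 12 weeks old, and 5 mice made up each of 4 groups. The control group received isotype-matched antibody by intraperitoneal injection. The group called ICI here received the immune checkpoint inhibitors anti-CTLA-4, given 3 times weekly as 1 mg, and anti-PD-1, given 2 times weekly as 200 µg. Mice of the melanoma group bore tumours of D4M-3A.UV2, a syngeneic mouse melanoma line injected into the skin on both sides at 500000 cells per injection, and received the isotype antibody after 1 week of engraftment. The melanoma plus ICI group carried the same tumours and received both inhibitors for 3 weeks. In all groups, 72 hours passed between the final injection and the harvest of the brain. The duration of inhibitor treatment is written out for the melanoma plus ICI group alone, and the tumours grew in the skin, not in the brain.

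Endothelial cells of brain vessels are sealed to each other by tight junctions, whose strands are built from claudins and occludin and are tied to the cytoskeleton by zonula occludens proteins. Where 3 cells meet, angulins, of which the Lsr product is the first and the Ildr2 product another, recruit tricellulin, the product of Marveld2, to close the remaining gap. Adherens junctions beneath the strands are held by VE-cadherin, the product of Cdh5. These seals underlie the blood-brain barrier, and most of the same proteins also occur in epithelia, among them that of the choroid plexus, which borders the hippocampus.

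The libraries held between 21990624 and 25735149 counts in all. Levels are given in CPM, counts per 1000000 of the scaled library size. The hippocampal identity of the tissue was checked by Prox1 of dentate granule cells, at 21.9 to 187 CPM, and Wfs1 of field CA1, at 67.6 to 249 CPM, and both were present in all 20 libraries. Control replicate 4 and melanoma plus ICI replicate 1 had stood apart from the other libraries in an earlier look at the whole profile. They held the highest and second highest level of Cldn5, whose exon length is the shortest of the 9, and the lowest and second lowest levels of Tjp1 and Ildr2, whose exon lengths are the greatest. Results that rest on them are given with and without them. Library names carry numbers that run in separate blocks for the groups, so a batch that followed them cannot be told apart from the groups. Tissue was measured in bulk, so fewer cells of a type and less RNA per cell cannot be told apart.

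The Lsr gene (ENSMUSG00000001247, chromosome 7, 30957770 to 30973464, minus strand) overlaps antisense genes, and this sets what its counts can hold. Of its 2172 exon bases, 44.7% are also exon of a gene on the opposite strand, 946 of them of Gm4673. Gm4673 had 3676 counts over all libraries, more than the 2385 of Lsr. Genes lying wholly inside exons of a highly counted gene on the opposite strand had no count in any library (0 of 111 with a count), and levels per length are therefore given over unshared exon bases, 1201 for Lsr. How the authors counted reads in shared bases is not given in the sources used here. Gm4673 itself averaged 8.20 CPM among controls, 7.45 with ICI, 7.88 with melanoma and 7.77 with both, a narrow range beside that of Lsr.

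Promoters of Lsr and Cldn5 are shown because these were the members whose melanoma libraries all lay below control and below melanoma plus ICI. RefSeq promoter windows of GRCm38.p6 matched 7 of the 9 genes, all except Cdh5 and Pecam1. The 250 bases before the start are printed 5′ to 3′ on the gene's own strand, with the GC box, GGGCGG or its reverse complement CCGCCC, in capitals.
Lsr, chr7:30973470-30973719, minus strand: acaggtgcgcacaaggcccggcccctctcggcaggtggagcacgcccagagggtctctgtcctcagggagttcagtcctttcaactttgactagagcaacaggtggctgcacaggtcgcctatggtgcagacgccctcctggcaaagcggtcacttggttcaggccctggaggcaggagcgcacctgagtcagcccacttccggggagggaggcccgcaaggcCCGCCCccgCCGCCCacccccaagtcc
Cldn5, chr16:18776597-18776846, plus strand: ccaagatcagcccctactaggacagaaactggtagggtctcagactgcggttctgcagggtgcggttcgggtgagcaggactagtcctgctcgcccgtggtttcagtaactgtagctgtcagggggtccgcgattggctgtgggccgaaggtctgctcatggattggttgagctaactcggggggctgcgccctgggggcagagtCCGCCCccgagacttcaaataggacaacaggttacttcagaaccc
The Lsr window holds 2 GC boxes and 13 CpG dinucleotides at 66.8% GC, and the Cldn5 window 1 GC box and 12 CpG at 59.6% GC. The median over all windows was 52.4% GC. Neither window contains the ETS core AGGAAG, the TCF core CTTTGT or the TATA box TATAAA on either strand. Of all 32851 windows of this length, 32.7% hold the GC box, 29.5% the ETS core, 16.5% the TCF core and 12.4% the TATA box. Every window of the other matched members also holds at least 1 GC box, so the motif does not set Lsr and Cldn5 apart from them.

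Levels differed widely between the 9 genes. Per kilobase of unshared exon and averaged over 20 libraries, Cldn5 stood at 20.4 ± 6.85 CPM (SD), Ildr2 at 20.3 ± 3.70 and Tjp1 at 14.4 ± 2.23. A middle group followed, with Lsr at 4.19 ± 0.878, F11r at 3.77 ± 1.28, Ocln at 3.46 ± 0.926, Cdh5 at 3.38 ± 0.810 and Pecam1 at 3.04 ± 0.481. Marveld2, the tricellulin gene that Lsr protein recruits, was lowest at 0.452 ± 0.121 CPM per kilobase. Over all of their exon bases instead, Lsr would stand at 2.32 ± 0.486, below Pecam1, and Ildr2 at 18.0 ± 3.29, so the place of Lsr depends on how shared bases were counted. In the order over unshared exon, Tjp1 lay above Lsr and Pecam1 above Marveld2 by more than the sum of their SDs, and the other neighbours did not differ beyond that spread. From library to library, the highest level was between 1.80 times the lowest, for Pecam1, and 3.14 times, for Cldn5, with 2.06 times for Lsr. Over all 20 libraries Ildr2 ran from 102.03 to 197 CPM, Tjp1 from 62.4 to 138, Ocln from 10.3 to 25.6 and Cdh5 from 8.21 to 20.1, and these ranges are not scaled for length. Ocln (chromosome 13, 100496507 to 100552718) and Marveld2 (chromosome 13, 100595957 to 100616971) lie close together on the same strand, and with group means removed their r was 0.15, or -0.10 without the libraries that stood apart. All values that follow are plain CPM or differences on the log2 scale.

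Lsr, the angulin-1 gene, was lower in ICI and in melanoma than in control, and in melanoma plus ICI it stood at the control level. The control libraries were at 6.15, 6.51, 5.38, 4.80 and 6.85 CPM. The ICI libraries were at 3.60, 3.66, 3.33, 4.49 and 4.04 CPM. The highest ICI library thus lay below the lowest control library. The melanoma libraries were at 4.37, 4.74, 4.64, 4.50 and 4.30 CPM, all below control and with a narrow gap to its lowest library. The melanoma plus ICI libraries were at 5.46, 6.07, 5.88, 6.63 and 5.34 CPM, within the range of control and above every ICI and melanoma library.

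Fitted over all groups, Lsr was 35.5% lower in ICI than in control, a log2 fold change of -0.63 (SE 0.12), and 24.1% lower in melanoma than in control, at -0.40 (SE 0.12). With a tumour present the inhibitors went with a higher level, at 0.38 (SE 0.12) for melanoma plus ICI against melanoma, and against ICI the difference was 0.62 (SE 0.12). The inhibitor effect with a tumour minus that without, called the interaction below, was 1.02 (SE 0.16). These are the values for which Lsr was chosen. Leaving out any library in turn kept the Lsr interaction between 0.96 and 1.08, and without the pair of libraries that stood apart it was 1.11. Counting error alone gives an SD of 0.503 CPM per control library and 0.439 CPM per melanoma library, beside observed SDs of 0.840 and 0.181 CPM. Melanoma was the tightest of the 4 groups, and its SD lay below the counting SD. Whether an SD that small in 5 libraries falls outside read sampling was not tested.

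**Figure D1:**
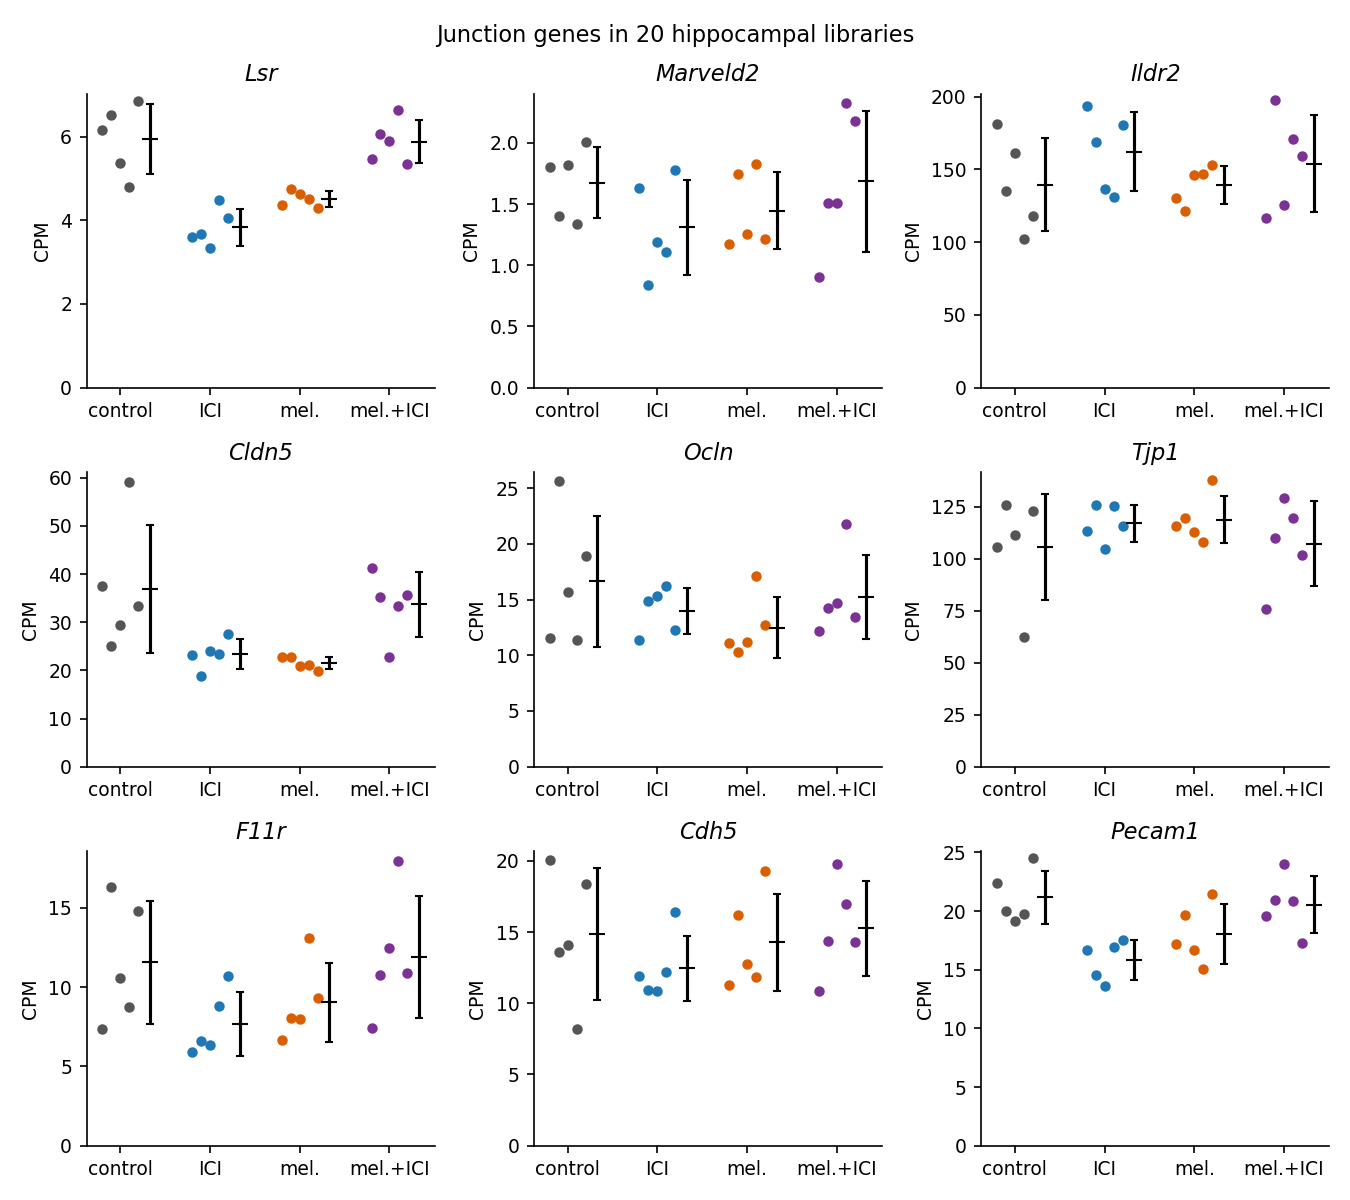
CPM of the 9 junction genes in each library (points, in replicate order), with the group mean and SD (bar), for control, ICI, melanoma (mel.) and melanoma plus ICI, on axes that start at 0. Lsr in ICI, at 3.33 to 4.49 CPM, lies below every control library, and Cldn5 in melanoma, at 19.9 to 22.8 CPM, does too.

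The other tricellular genes did not separate the groups. Marveld2 averaged 1.68 ± 0.291 CPM among control mice and 1.31 ± 0.386 with ICI, 1.44 ± 0.315 with melanoma and 1.69 ± 0.577 with both (SD, n = 5 each). As for Lsr, ICI was lowest and melanoma next, and single libraries overlapped in every comparison, from 0.839 to 2.33 CPM over all 20. With 19 to 59 counts per library, counting error alone gives an SD of 0.267 CPM in control, 0.238 with ICI and 0.259 with both, so the observed spread was close to it in control and wider in the groups given ICI. Its log2 fold change was -0.36 (SE 0.25) in ICI against control, with an adjusted p of 0.766 by edgeR's quasi-likelihood test with Benjamini-Hochberg adjustment. Ildr2, the other angulin, went the opposite way, at 139 ± 32.03 CPM in control and 162 ± 27.2 in ICI, by 0.22 on the log2 scale (SE 0.16, adjusted p 0.766 by edgeR). The Ildr2 difference was 0.33 without control replicate 1 and 0.12 without control replicate 4, and that of Marveld2 -0.23 without ICI replicate 2. Ildr2 was at 139 ± 13.2 CPM in melanoma and 154 ± 33.1 in melanoma plus ICI, and all 4 groups overlapped.

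Cldn5, the claudin that dominates brain endothelial tight junctions, had the largest difference of the 9 genes in melanoma against control. The control libraries were at 37.5, 25.1, 29.4, 59.1 and 33.3 CPM, with replicate 4 far above the rest. The ICI libraries were at 23.2, 18.8, 24.1, 23.5 and 27.5 CPM, and the highest of them lay within the control range. The melanoma libraries were at 22.8, 22.8, 21.0, 21.2 and 19.9 CPM, all below control. The melanoma plus ICI libraries were at 41.3, 35.2, 22.8, 33.4 and 35.7 CPM. All but replicate 3 of these were clearly above melanoma, and replicate 3, at 22.84 CPM, was just above the highest melanoma library, at 22.83.

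Cldn5 was 41.6% lower in melanoma than in control, at -0.78 on the log2 scale (SE 0.18, adjusted p 0.642 by edgeR). It was 36.5% lower in ICI than in control, at -0.66 (SE 0.18, adjusted p 0.766 by edgeR). Melanoma plus ICI against melanoma gave 0.65 (SE 0.18, adjusted p 0.825 by edgeR), and against ICI 0.53 (SE 0.18, adjusted p 0.563 by edgeR). The interaction of Cldn5 was 1.30 (SE 0.26, adjusted p 0.253 by edgeR). It passed the threshold of 0.05 under DESeq2, at an adjusted p of 0.00538, and in edgeR without melanoma plus ICI replicate 3, at 1.41 and 0.0250. Without the libraries that stood apart, the interaction was 0.98 (adjusted p 0.166 by edgeR), melanoma against control -0.54 and ICI against control -0.42, and the last was also -0.42 without control replicate 4 alone. Under all alternatives the adjusted p of this interaction ran from 0.00538 to 0.541.

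F11r, which encodes the junctional adhesion molecule JAM-A, was likewise lowest in ICI and next in melanoma, with a wide spread. Control libraries were at 7.33, 16.3, 10.6, 8.72 and 14.8 CPM, and ICI libraries at 5.88, 6.58, 6.33, 8.81 and 10.7 CPM. Melanoma libraries were at 6.64, 8.06, 8.01, 13.1 and 9.33 CPM, and melanoma plus ICI libraries at 7.43, 10.8, 12.5, 17.9 and 10.9 CPM. The groups overlapped in every comparison. ICI against control gave -0.59 (SE 0.25) and an adjusted p of 0.766 by edgeR, and the interaction 0.99 (SE 0.36) and 0.476. Ocln, the occludin gene, averaged 16.6 ± 5.91 CPM among controls, 14.0 ± 2.06 with ICI, 12.5 ± 2.74 with melanoma and 15.3 ± 3.76 with both. Its differences ran from -0.41 (SE 0.21) in melanoma against control to 0.29 in melanoma plus ICI against melanoma, with adjusted p-values of 0.877 and 0.825 by edgeR. They were -0.20 without control replicate 2 and 0.13 without melanoma plus ICI replicate 4. Tjp1, which encodes the scaffold protein ZO-1, averaged more in ICI and melanoma than in control. It was at 106 ± 25.5, 117 ± 8.91, 119 ± 11.4 and 107 ± 20.4 CPM in the same group order. Every difference between its groups was smaller than the larger of their SDs. Against control it was 0.15 in ICI and 0.17 in melanoma on the log2 scale, and 0.0092 and 0.031 without the libraries that stood apart.

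Pecam1, an adhesion molecule of endothelial contacts, was the other member whose ICI libraries all lay below control. Control libraries were at 22.4, 20.03, 19.2, 19.7 and 24.5 CPM, and ICI libraries at 16.7, 14.5, 13.6, 17.0 and 17.6 CPM. Melanoma libraries were at 17.2, 19.7, 16.7, 15.1 and 21.5 CPM, and melanoma plus ICI libraries at 19.5, 21.0, 24.0, 20.9 and 17.3 CPM. The melanoma values spanned parts of both the ICI and the control range. ICI against control gave -0.42 (SE 0.11), 25.1% lower, with an adjusted p of 0.766 by edgeR. Melanoma plus ICI against ICI gave 0.37 (SE 0.11, adjusted p 0.563 by edgeR), and the interaction was 0.61 (SE 0.16, adjusted p 0.326 by edgeR). Cdh5, the VE-cadherin gene, averaged 14.9 ± 4.63 CPM among controls, 12.4 ± 2.29 with ICI, 14.3 ± 3.39 with melanoma and 15.3 ± 3.32 with both. Its ICI difference was -0.26 (SE 0.21, adjusted p 0.767 by edgeR), about as large as its error. It was -0.13 without control replicate 1, -0.17 without control replicate 5 and -0.41 without control replicate 4.

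**Figure D2:**
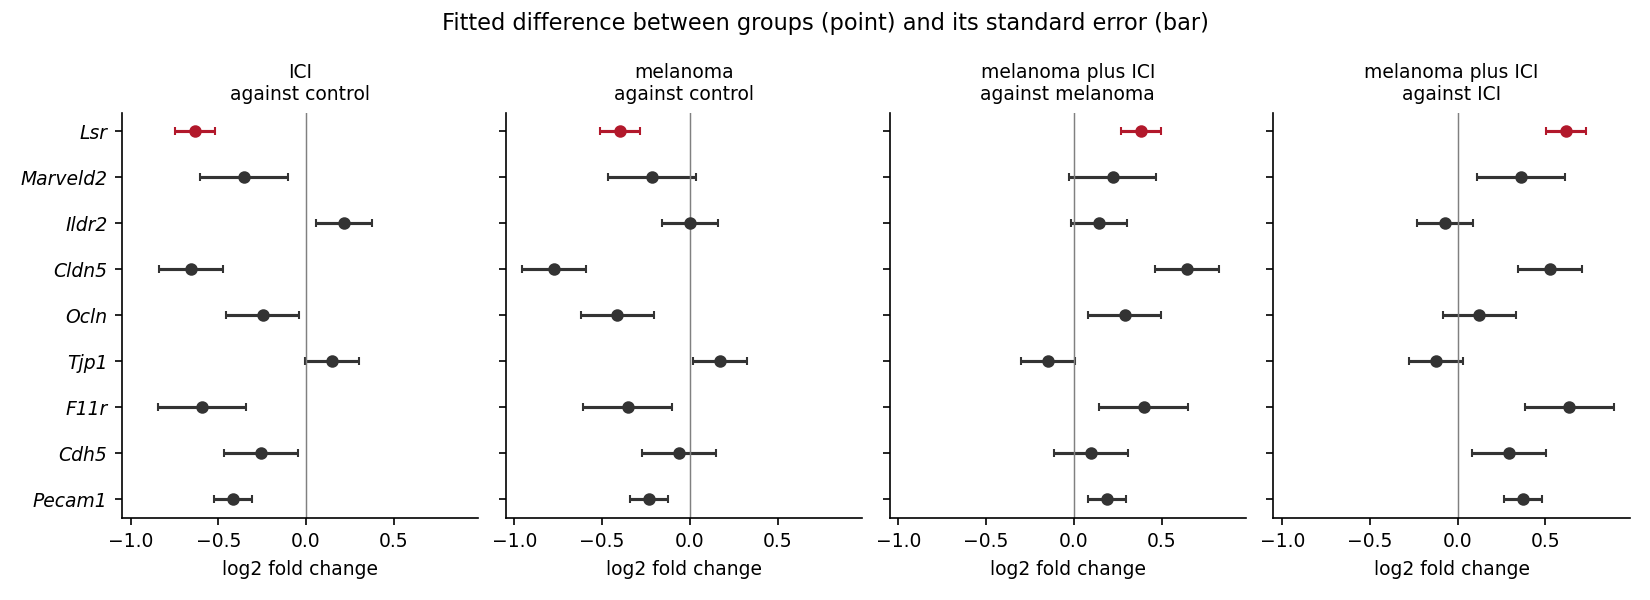
Fitted log2 fold change (point) and standard error (bar) of the 9 junction genes in 4 pairs of groups, with Lsr in red and a grey line at 0. Lsr, Cldn5, F11r and Pecam1 lie to the left in ICI against control, at -0.63, -0.66, -0.59 and -0.42, and to the right in melanoma plus ICI against ICI, while Ildr2 and Tjp1 stay near 0 or on the other side.

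Counted over the 8 members other than Lsr, 0 had an edgeR adjusted p under 0.05 in the 6 comparisons, and 0% of the 18427 genes did. At an unadjusted p under 0.05, ICI against control had 3 of the 8 lower, Pecam1, Cldn5 and F11r, and 0 higher, beside 3.15% of all genes lower, and DESeq2 called 1 gene of all in this comparison. Melanoma against control had 2 lower, Cldn5 and Pecam1, beside 2.41% of all genes. Melanoma plus ICI against melanoma had 1 higher, Cldn5, beside 2.63%, and against ICI 3 higher, Cldn5, F11r and Pecam1, beside 4.12%. The interaction had the same 3 higher, beside 5.99%. These comparisons share groups, so the recurrence of the same genes is not separate evidence. The 8 were also listed with earlier results of these data known, so counts and medians beside all genes are descriptions. In melanoma plus ICI against control 0 of the 8 had such a p, where 2.38% of all genes did, and the members ran from -0.13 for Cldn5 to 0.14 for Ildr2.

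Groups without overlap were found for few members. Lsr and Pecam1 were lower in every ICI library than in every control library, beside 0.467% of all genes. Lsr and Cldn5 were lower in every melanoma library than in every control library, beside 0.483%, and higher in every melanoma plus ICI library than in every melanoma library, beside 0.635%. Lsr alone was higher in every melanoma plus ICI library than in every ICI library, beside 0.586% of all genes. For Lsr this separation is part of what it was chosen for. The median difference of the 8 members other than Lsr was -0.31 in ICI against control and -0.22 in melanoma against control, beside -0.01 over all tested genes in both. It was 0.21 in melanoma plus ICI against melanoma and 0.33 against ICI, beside 0.02 over all tested genes in both.

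A wider set of junction genes was counted in the same way, with no test of its difference from the members. Of 45 other tricellular, tight and adherens junction genes, 44 passed the filter, and 0 had an adjusted p under 0.05 by edgeR in any comparison, the smallest being 0.484. In ICI against control, 22 lay above 0 and 22 below, with a median of 0.00. At an unadjusted p under 0.05, 0 of them were lower and 3 higher, beside 2.08% of all genes higher. These were Prkci, the atypical protein kinase C of the polarity complex, at 55.9 ± 2.32 CPM in control and 65.0 ± 4.44 in ICI, the scaffold gene Magi3, at 45.9 ± 7.82 and 57.0 ± 9.62 CPM, and the alpha-catenin gene Ctnna2, at 96.5 ± 8.68 and 108 ± 3.08 CPM. Prkci was higher in every ICI library than in every control library, where 0.418% of all genes were. Against control, 0 of the 44 had an unadjusted p under 0.05 in melanoma, where 5.11% of all genes did. In melanoma plus ICI 0 of the 44 did, beside 2.38% of all genes. In melanoma 28 lay above 0 and 16 below, with a median of 0.07.

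In melanoma plus ICI, 31 of the 44 lay above 0 and 13 below against melanoma, with a median of 0.04, and 30 above and 14 below against ICI, with a median of 0.14, beside 0.02 over all tested genes in both. Nectin2, an adherens junction adhesion gene, was at 6.41 ± 1.39 CPM in melanoma and 8.33 ± 0.918 in melanoma plus ICI. It was the only one of the 44 with an unadjusted p under 0.05 in that comparison, beside 2.63% of all genes higher. Against ICI there were 3 of the 44 higher, Cdh1, Esam and Nectin2, beside 4.12% of all genes. The endothelial adhesion gene Esam was at 11.9 ± 1.11 CPM in ICI and 14.9 ± 4.63 in melanoma plus ICI. For the interaction, 6 were higher and 1, Prkci, lower, beside 5.99% of all genes higher and 4.28% lower. The 5 of smallest p among the 6 are named here. Marveld1, a relative of tricellulin, had an interaction of 0.46 (SE 0.20), Marveld3 2.04 (SE 0.83), Cldn10 0.42 (SE 0.19), Cgnl1 1.64 (SE 0.73) and Cldn2 3.35 (SE 1.53). Cldn2, the claudin of choroid plexus epithelium, ranged from 0.246 to 44.3 CPM over the 20 libraries. The adjusted p of each of these 5 interactions was 0.484 by edgeR.

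Whether Lsr followed the other junction genes was asked in 2 ways, and the answers differed. Over all 20 libraries, Pecam1 had a Pearson r with Lsr of 0.80 (Spearman's rho 0.77), rank 8 of 18426 genes, and F11r 0.72 (rho 0.66), rank 64. Cdh5 and Cldn5 were each at 0.49, Marveld2 at 0.47, Ocln at 0.45, Tjp1 at -0.00 and Ildr2 at -0.11. These values hold the group means for which Lsr was chosen and are given without a p. Without the 2 libraries farthest from the Lsr median, control replicate 5 and ICI replicate 3, Pecam1 was at 0.71, F11r at 0.64 and Cldn5 at 0.48.

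The second way removed the group means, so that only differences between mice of the same group remained, which the choice of Lsr did not use. Tjp1 then had the highest r with Lsr, 0.66 (rho 0.57), followed by F11r at 0.60 (rho 0.56), Cdh5 at 0.57 (rho 0.50), Ocln at 0.50 (rho 0.41) and Pecam1 at 0.50 (rho 0.53). Marveld2 stood at 0.29 (rho 0.25), Ildr2 at 0.15 (rho 0.11) and Cldn5 at -0.37 (rho -0.20). None of the 8 passed, the smallest adjusted p being 0.123 for r and 0.214 for rho, both for Tjp1, by a permutation test over all 18426 genes, and 0% of all genes passed. Without the 2 libraries farthest from the Lsr median, r was 0.62 for Tjp1, 0.54 for F11r, 0.51 for Cdh5 and 0.32 for Pecam1. At an unadjusted p under 0.05, 4 of the 8 had r above 0, Tjp1, F11r, Cdh5 and Pecam1, beside 10.8% of all genes. Without control replicate 4 and melanoma plus ICI replicate 1, Tjp1 dropped to 0.44, Cdh5 to 0.29, Ocln to 0.34 and Marveld2 to 0.10, while F11r stayed at 0.55 and Pecam1 at 0.49. Cldn5 turned to 0.11 and Ildr2 to -0.25 without them.

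**Figure D3:**
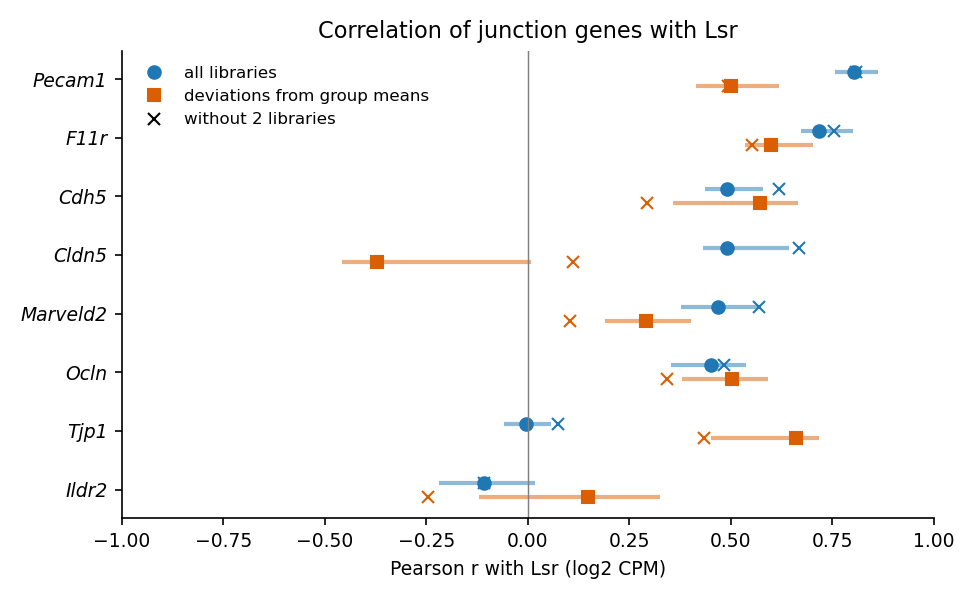
Pearson r of 8 junction genes with Lsr in log2 CPM, over all libraries (blue circles) and after removal of group means (orange squares). Bars give the range when each library is left out, and crosses the value without control replicate 4 and melanoma plus ICI replicate 1. Cldn5 moves from 0.49 to -0.37, and Tjp1 from -0.00 to 0.66, when the group means are removed.

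Pairs of members varied together to different degrees. With group means removed, Ocln and F11r had an r of 0.80, and Cdh5 and Pecam1 0.71, and these stayed at 0.78 and 0.84 without the libraries that stood apart. Cldn5 and Tjp1 were opposed, at -0.84, or -0.62 without those libraries. Tjp1 and Cdh5 went from 0.77 to 0.43. Between these pairs, r was -0.12 for Ocln and Pecam1, 0.16 for F11r and Pecam1, 0.36 for F11r and Cdh5, and 0.13 for Ocln and Cdh5, the last at -0.31 without those libraries. All are descriptions over the same 20 libraries.

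Levels of cell-type markers are set beside these genes. An endothelial score, the mean log2 CPM of 18 markers such as Flt1, Tek and Slc2a1, was 4.26 ± 0.12 in ICI, beside 4.51 ± 0.14 among controls, 4.50 ± 0.12 with melanoma and 4.51 ± 0.28 with both (SD, n = 5 each). Of the 18 markers, 6 were below control in ICI at an unadjusted p under 0.05, beside 3.15% of all genes. At an adjusted p under 0.05 by edgeR 0 were. All 18 lay below control in ICI, with a median of -0.23. Their summed level was 434 to 530 CPM in ICI, 525 to 655 among controls, 568 to 662 with melanoma and 496 to 886 with both, and no marker was at 0 in any library. With the score as a covariate, the ICI difference was -0.56 for Lsr, -0.82 for Cldn5, -0.45 for F11r, -0.22 for Pecam1 and 0.13 for Cdh5. Relative to the score of the same library, Lsr was 0.37 lower on the log2 scale in ICI than in control, with overlap, and 0.38 lower in melanoma, without overlap. For Lsr these are again values it was chosen for. On the same scale Pecam1 was lower without overlap in ICI, by 0.16, as were 0.0217% of all genes. Because the score itself was lower in ICI, this scale raises every gene there. Few genes could thus be lower, and the share is no plain background for Pecam1. In melanoma Pecam1 was lower without overlap by 0.24 and Cldn5 by 0.71, as were 0.217% of all genes. In melanoma against control, 8 of the 18 markers lay above 0 and 10 below, with a median of -0.07. Beyond these values the part of the endothelial share in the results was not tested.

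Relations of the 9 genes with 10 marker scores were computed after removal of group means, 90 in all. Pecam1 and Cdh5 followed the endothelial score, and Lsr did not pass. The r with the score was 0.80 for Pecam1 (rho 0.81) and 0.74 for Cdh5 (rho 0.81), each with an adjusted p of 0.0115 for r and 0.011 for rho by a permutation test over all genes, of which 3.98% passed. Without the 2 libraries farthest from the median score these r were 0.82 and 0.79. For Lsr it was 0.36 (rho 0.60, adjusted p 0.351 and 0.0821 by the same permutation test), and for Cldn5 -0.38 (adjusted p 0.404), which was -0.050 without the 2 libraries farthest from the median score. Cdh5 also passed with the mural cell score, at 0.84, where 3.75% of all genes did, and with the astrocyte score, at 0.89. Pecam1 passed with the mural score by r alone, at 0.73 (adjusted p 0.0439 for r and 0.0764 for rho by permutation test). In all, 9 of the 90 relations passed by r. The astrocyte score passed for 17.2% of all genes, Tjp1 at 0.82 and Pecam1 at 0.63 among them, Pecam1 by r alone (adjusted p 0.0512 for rho by permutation test). Without the 2 libraries of this score farthest from its median, the r of Cdh5 was 0.80 and that of Tjp1 0.56. Without the libraries that stood apart, r with the astrocyte score was 0.46 for Tjp1, 0.78 for Cdh5 and 0.77 for Pecam1, and r with the mural score 0.75 for Cdh5. The strongest r of Lsr with any of the 10 marker scores was -0.68 (rho -0.61), with neurons, at an adjusted p of 0.0545 by the permutation test. For Ildr2 it was -0.79 (rho -0.78), with oligodendrocytes, at an adjusted p of 0.0535 by the same test. Without the libraries that stood apart that r was -0.82. With the endothelial score, r was 0.50 for Tjp1, 0.28 for F11r, 0.20 for Marveld2, -0.021 for Ocln and -0.12 for Ildr2, and none of these passed.

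F11r and Ocln followed the choroid plexus instead. The choroid plexus score, over 9 markers without Cldn2, ran from -0.21 to 6.68 over the libraries, and the summed level from 20.8 to 6628 CPM. It was 33.8 to 6240 CPM among controls (median 2575), 20.8 to 2231 with ICI (median 733), 43.9 to 3709 with melanoma (median 434) and 67.5 to 6628 with both (median 2204). All 9 markers were below control in ICI and in melanoma, with a median of -1.45 in each, and above in melanoma plus ICI against melanoma (median 1.51) and against ICI (median 1.41). The median interaction was 2.84, with 3 of 9 higher at an unadjusted p under 0.05, beside 5.99% of all genes. An adjusted p under 0.05 by edgeR was reached by 0 of the 9 markers in any comparison. With group means removed, r with this score was 0.87 for F11r (rho 0.92) and 0.83 for Ocln (rho 0.82), with adjusted p-values of 0.00545 and 0.00853 by a permutation test over all genes, of which 4.81% passed. Without the 2 libraries farthest from the median score they were 0.85 and 0.83. The r of Lsr was 0.46 (adjusted p 0.243 by permutation test) and that of Cldn5 -0.56 (adjusted p 0.134). With the choroid plexus score as a covariate, the interaction was 0.58 for F11r in place of 0.99, 0.20 for Ocln in place of 0.54 (0.33 without control replicate 2), and 0.94 for Lsr in place of 1.02. Beyond these values the part of the choroid plexus in the results was not tested.

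Marker lists of 4 further sources lay mostly on one side of 0 in some comparisons, with summed levels that overlapped between all groups and 0 markers at an adjusted p under 0.05 by edgeR in any comparison. Of 8 meningeal markers, 8 were below control in ICI (median -0.49) and 7 in melanoma (median -0.26). All 8 were above 0 in melanoma plus ICI against melanoma (median 0.71) and against ICI (median 0.83). The median interaction was 1.20, with 4 of the 8 higher at an unadjusted p under 0.05, beside 5.99% of all genes. Their summed level was 104.2 to 305 CPM among controls, 59.9 to 241 with ICI, 77.8 to 254 with melanoma and 141 to 438 with both. Of 9 mural cell markers, 7 were below control in ICI (median -0.33), 3 of them at an unadjusted p under 0.05, beside 3.15% of all genes. The median interaction of the 9 was 0.44. Their sum was 213 to 295 CPM among controls, 179 to 231 with ICI, 186 to 268 with melanoma and 216 to 297 with both. All 7 tested of 8 blood and platelet markers were below control in ICI, with a median of -1.07, while 3 were above and 4 below in melanoma. These summed to 14.1 to 50.1 CPM among controls, 3.72 to 21.2 with ICI, 13.4 to 45.1 with melanoma and 14.3 to 42.5 with both, and the platelet gene Ppbp was at 0 in 14 libraries. All 7 oligodendrocyte markers, 0 of them at an unadjusted p under 0.05 in any comparison, were below control in ICI (median -0.26). They were above it in melanoma (median 0.22) and below 0 in melanoma plus ICI against melanoma (median -0.36). In melanoma they thus went the other way from most meningeal and mural markers (medians -0.26 and -0.12). Their sum was 2852 to 8313 CPM among controls, 3126 to 7340 with ICI, 6289 to 8532 with melanoma and 2917 to 8089 with both. Ependymal, microglial, astrocyte and neuronal lists had markers on both sides of 0 in ICI and in melanoma against control. Of the 7 microglial markers, 5 were below control in ICI (median -0.14) and 5 in melanoma (median -0.086). At an unadjusted p under 0.05, 2 were lower in each, beside 3.15% and 2.41% of all genes. For the interaction 2 of the 7 were higher, beside 5.99%, with a median of 0.013. The part of these cells in the differences of the junction genes was not tested.

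**Figure D4:**
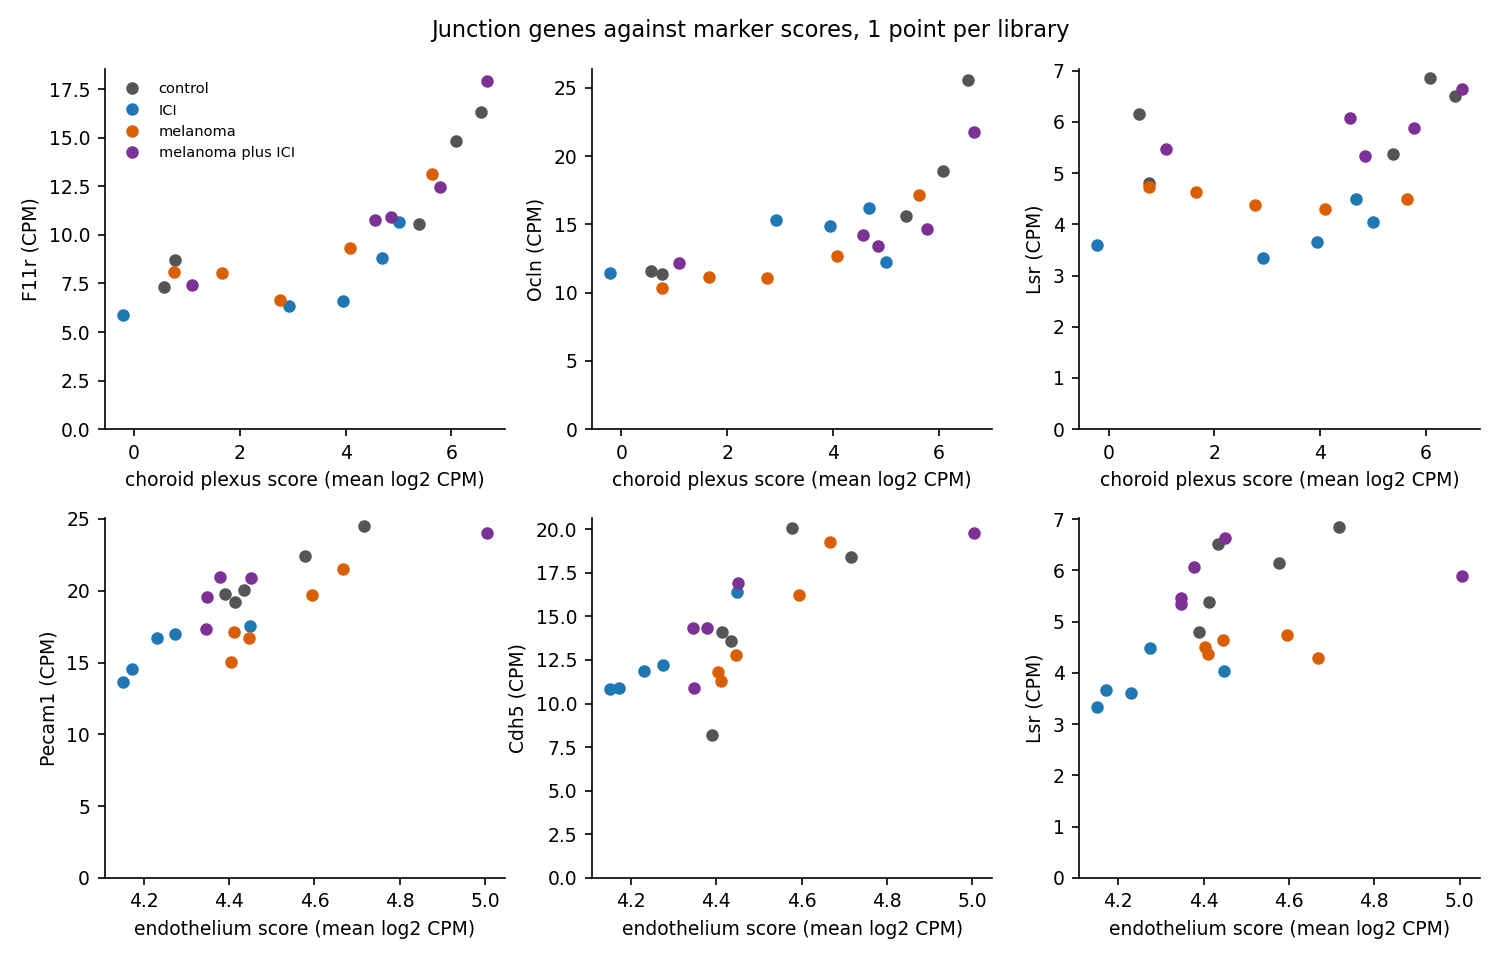
CPM of F11r, Ocln and Lsr against the choroid plexus score (top) and of Pecam1, Cdh5 and Lsr against the endothelium score (bottom), both scores in mean log2 CPM, 1 point per library and groups by colour. F11r and Ocln climb with the choroid plexus score in all groups and Pecam1 and Cdh5 with the endothelium score, while Lsr in melanoma stays between 4.30 and 4.74 CPM across both.

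The genes whose levels were most like those of Lsr were named by rank of r among genes with a mean of at least 1 CPM. The 9 members and genes that overlap Lsr were left out of this ranking. With group means removed they were Asap3 at 0.86, Mavs at 0.85, Agpat2 at 0.84, Map3k1 at 0.83 and Tgfbr2 at 0.82. Over all 20 libraries they were Itgb5 at 0.89, Lyz2 at 0.85, Rhoq at 0.84, Ctsh at 0.82 and Ggt5 at 0.80. The lists have no gene in common. Itgb5, an integrin subunit, averaged 57.0 ± 3.07 CPM among controls, 45.9 ± 3.13 with ICI, 49.5 ± 1.62 with melanoma and 56.3 ± 6.15 with both, the same order of groups as Lsr. Ctsh, which encodes the lysosomal protease cathepsin H, was at 11.2 ± 1.11, 7.98 ± 1.34, 9.21 ± 1.14 and 11.2 ± 1.26 CPM in the same groups. None of the other junction genes counted above was among these 10. The members could not be, and over all libraries Pecam1 ranked 8 by r, next to Ggt5 at rank 7.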

How the data were processed

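Total RNA of 1 hippocampus per mouse was extracted with a column kit and sequenced, per the labels' protocols. The deposited files hold 1 table of raw counts per gene and library, whole numbers in the layout that featureCounts writes, per the file headers. The submitters' processing notes list STAR 2.5.2b and DESeq2 1.16.1. How the authors treated strand and multi-mapping reads, and which build they used, is not given in the sources used here. The gene coordinates in the deposited tables were set against GENCODE M21, which annotates GRCm38, where 45128 of 49671 identifiers had the same start and end, and symbols came from a supplied table that matched 49326. All lines named a gene.

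From the counts, edgeR 4.0.16 (R 4.3.3) was run on the 20 libraries with a mean for each of the 4 groups, TMM scaling (factors 0.9555 to 1.0432), filterByExpr (minimum count 10, minimum total 15) and a robust quasi-likelihood test, with Benjamini-Hochberg adjustment over 18427 genes and a threshold of 0.05. CPM use the scaled library sizes, and log2 values a prior count of 2. Correlations were tested two-sided by 100000 permutations, within groups where group means were removed, and adjusted over all genes. The code was checked on simulated counts. No pair of libraries within a group agreed within sampling noise (40 pairs, chi-square of 11.5 to 134 per gene). Groups come from the sample titles. P-values measure the spread between mice of these groups.

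The members, the other junction genes and the marker lists were chosen with earlier results of these data known. The text names all 9 members and up to 6 other junction genes per comparison by p, among those with an unadjusted p under 0.05. It also names the 5 genes of highest r with Lsr in each analysis, leaving out members and genes that overlap Lsr. Alternatives were DESeq2 1.42.0, other size factors, no filter, a prior count of 0.5, the compared groups alone, a replicate block, marker scores as covariates, and leaving out libraries. No library was left out of the results given first. Intervals and counting SDs cover counting error only.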

Additional observations from a re-analysis of the deposited data

Results flagged for a closer look

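Each group of 5 libraries was screened for a library far from the others, for each of the 9 junction genes. Of the 36 groups, 2 held such a library, and chance alone marks about 1 in 20. Ocln was at 21.76 CPM in melanoma plus ICI replicate 4, beside 12.2 to 14.7 CPM in the other libraries of that group. That library also had the highest choroid plexus score of all, 6.68, and the highest F11r level, 17.9 CPM. The part of the choroid plexus in the Ocln value was not tested in a single library. Cdh5 was at 16.4 CPM in ICI replicate 5, beside 10.9 to 12.2 CPM in the other ICI libraries, and that library had the highest endothelium score of its group, 4.45.

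The inhibitor difference without a tumour and that with one had opposite signs for Lsr and for 7 of the 8 other members, all but Ildr2, as for 65.8% of all 18427 genes. The sign of Cdh5 with a tumour turned to -0.015 without melanoma plus ICI replicate 3. Lsr and Cldn5 are singled out because every ICI library lay below the control mean and every melanoma plus ICI library above the melanoma mean. The share of all genes that meet this rule was not counted. The difference was 1.02 on the log2 scale for Lsr and is among the values for which Lsr was chosen, so no test is given. For Cldn5 it was 1.30, with an adjusted p of 0.253 by edgeR, and its unadjusted p was 6.36e-05.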

How the results depend on the processing

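Lsr kept its direction under the alternatives run in the 5 comparisons other than melanoma plus ICI against control, where it was near 0, at -0.015, and ran from -0.082 to 0.042 when single libraries were left out. The count of genes past the threshold, 0 in each comparison under edgeR, was 1 under DESeq2 and 1 with the endothelial score as a covariate in ICI against control. In melanoma against control it was 8 under DESeq2, 2 with that covariate, 1 with only the groups compared and 0 to 3 when single libraries were left out, the 3 without melanoma plus ICI replicate 3 and 1 without control replicate 2. In melanoma plus ICI against melanoma it was 0 to 11, the 11 without melanoma plus ICI replicate 3, and against ICI 9 under DESeq2. For the interaction it was 47 under DESeq2, 3 with the covariate, 1 without the libraries that stood apart, and 0 to 11, again highest without melanoma plus ICI replicate 3, with 2 without ICI replicate 4 and 1 without control replicate 4. The cause was not tested. At an unadjusted p under 0.05 the main counts by edgeR were 964, 941, 438, 1013, 1590 and 1892 in the order ICI, melanoma and melanoma plus ICI against control, melanoma plus ICI against melanoma and against ICI, and interaction.

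The number of genes correlated with Lsr over all libraries holds the group levels Lsr was chosen for and supports nothing. It was 15, and it was 9 with a prior count of 0.5, 0 without the filter, 108 without the libraries that stood apart, 0 without control replicate 5 and ICI replicate 3, and 0 to 30 when single libraries were left out. With group means removed it was 0 throughout, with 4291 at an unadjusted p under 0.05.

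Some signs turned. With the endothelial score as a covariate, Cdh5 was at 0.13 in place of -0.26 in ICI against control, -0.077 in place of 0.29 in melanoma plus ICI against ICI and -0.024 in place of 0.35 for the interaction. Single libraries also moved the last 2 of these, to 0.18 without melanoma plus ICI replicate 3 and to 0.22 without control replicate 1. With the choroid plexus score, Ildr2 was at 0.0033 in melanoma against control, Ocln at -0.063 in melanoma plus ICI against ICI. In melanoma plus ICI against control, Marveld2 was then at -0.039, Tjp1 at -0.022, F11r at -0.064 and Cdh5 at -0.0072. Without the libraries that stood apart, Cldn5 was at 0.021, Tjp1 at -0.014 and Cdh5 at -0.018 in the same comparison, Ildr2 at 0.010 against ICI and 0.10 for the interaction, and the r with Lsr was -0.25 in place of 0.15 for Ildr2 and 0.11 in place of -0.37 for Cldn5 with group means removed and 0.075 for Tjp1 over all libraries. With size factors that last r was 0.0016.

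When single libraries were left out, melanoma plus ICI against control ran from -0.12 to 0.17 for Cdh5, -0.24 to 0.10 for Cldn5, -0.16 to 0.20 for F11r, -0.15 to 0.16 for Marveld2, -0.29 to 0.086 for Ocln, -0.11 to 0.014 for Pecam1 and -0.12 to 0.13 for Tjp1. Melanoma against control ran from -0.21 to 0.070 for Cdh5 and -0.094 to 0.11 for Ildr2, melanoma plus ICI against melanoma from -0.015 to 0.23 for Cdh5. Melanoma plus ICI against ICI ran from -0.18 to 0.010 for Ildr2 and -0.040 to 0.20 for Ocln, and the Ildr2 interaction from -0.19 to 0.020. The r with Lsr ran from -0.46 to 0.0084 for Cldn5 and -0.12 to 0.33 for Ildr2 with group means removed, and from -0.22 to 0.017 for Ildr2 and -0.059 to 0.058 for Tjp1 over all libraries.

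Replicate numbers did not pair the libraries. Over 30 pairs with the same number, r of their deviations ran from -0.35 to 0.53, and 6 of 20 libraries were closest to their own number. With the number as a block, 0 genes passed in every comparison, and the Lsr interaction was 1.02 and that of Cldn5 1.25. Under the block Ildr2 in melanoma against control was at 0.0097 and Marveld2 in melanoma plus ICI against control at -0.019. At 70 to 168 counts of Lsr and 19 to 59 of Marveld2 per library, depth limits what could be resolved.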
